A study of Homo sapiens with 6 samples.

Results

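Heat shock chaperones are the proteins that fold, hold and refold other proteins, and the set described here was given as gene symbols. No measured value entered the rule, but the set was chosen with earlier results of these data known. It names 10 genes, of which 8 were present among the 22413 mouse genes of the deposited table. Hspa1a and Hspa1b, the stress-inducible HSP70 genes, were not analysed here, so the set holds no measurement of the classical inducible HSP70. Of the 8 genes, 7 passed the filter on low values, which kept genes whose FPKM averaged 0.5 or more, and Hspb1 did not.

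The cells were BaF3-T315I, which were made from the mouse line BaF3 to express BCR-ABL with the T315I mutation. The parental BaF3 is described as an IL-3-dependent pro-B line. The BCR-ABL transgene was carried by control and treated cells alike. In total, 3 control samples were compared with 3 samples exposed to 1.1 µM of I13, a histone deacetylase (HDAC) inhibitor, for 48 h. The control vehicle and its exposure time are not given in the labels, and neither is whether the replicates were separate cultures, so p-values measure the spread between these samples only. The mRNA libraries were stranded, and each value is an FPKM, the fragments on a gene divided by gene length and library size. Levels of different genes can be compared only as far as the gene length used matches the transcripts expressed, which was not tested.

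HSP70 proteins bind exposed hydrophobic stretches of a client in a cycle driven by ATP, J-domain proteins such as DNAJB1 start the cycle, and HSP110 proteins such as HSPH1 exchange the nucleotide. HSP90 takes over clients close to their folded state, among them many kinases, and BCR-ABL is a well-known HSP90 client. HSPD1 and HSPE1 form the folding chamber of the mitochondrial matrix and its lid, and HSPB1 is a small heat shock protein that holds unfolded clients without ATP. HSP90 is itself a substrate of the deacetylase HDAC6, and heat shock factor 1 (HSF1) drives most of these genes under stress.

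Library totals, recovered from the FPKM values, lay between 16762119 and 17722950 fragments, so that depth differed little between the groups. Of 6 haematopoietic markers, 5 were present and expressed, with the summed level at 467 to 911 FPKM in the control and 942 to 1686 FPKM after I13. This sum came mostly from Csf2rb and Csf2rb2, with means over all samples of 459 and 429 FPKM. The values of Csf2rb, Spi1 and Il3ra overlapped between the groups, and those of Csf2rb2 and Ptprc did not. Of 7 B lineage markers 6 were present, and only Cd79a and Cd79b reached a mean of 1 FPKM, while Ebf1, Pax5, Igll1 and Vpreb1 were at or near 0. The 3 T cell markers summed to at most 0.296 FPKM in any sample, and the single fibroblast marker present, Col1a1, reached at most 0.13 FPKM. The 3 erythroid markers summed to 0.633 to 1.27 FPKM in the control and 2.33 to 5.69 FPKM after I13, mostly from Hba-a1. The part of these marker differences in the chaperone results was not tested. In bulk RNA, fewer cells of a type and less RNA per cell cannot be told apart.

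The levels fell into 3 ranges. Hsp90ab1, the constitutive cytosolic HSP90, was the most abundant of the set at 1888 to 2525 FPKM. It took between 0.566% and 0.757% of the recovered total of a library. Hspd1, Hspa8, Hsp90aa1 and Hspe1 followed, with means over all samples of 494, 468, 458 and 266 FPKM. Within these 4 genes the ranges of neighbours in the order overlapped, and the ranges of Hsp90ab1 above and Dnajb1 below did not reach them. Dnajb1 and Hsph1 lay far lower, with means of 19.0 and 16.7 FPKM and overlapping ranges. Hspb1 was listed at 0 or at the level of 1 fragment in every sample. In the order of the group means, Hsp90aa1 was number 4 of the set in the control and number 2 after I13. The other genes kept their relative order.

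**Figure D1:**
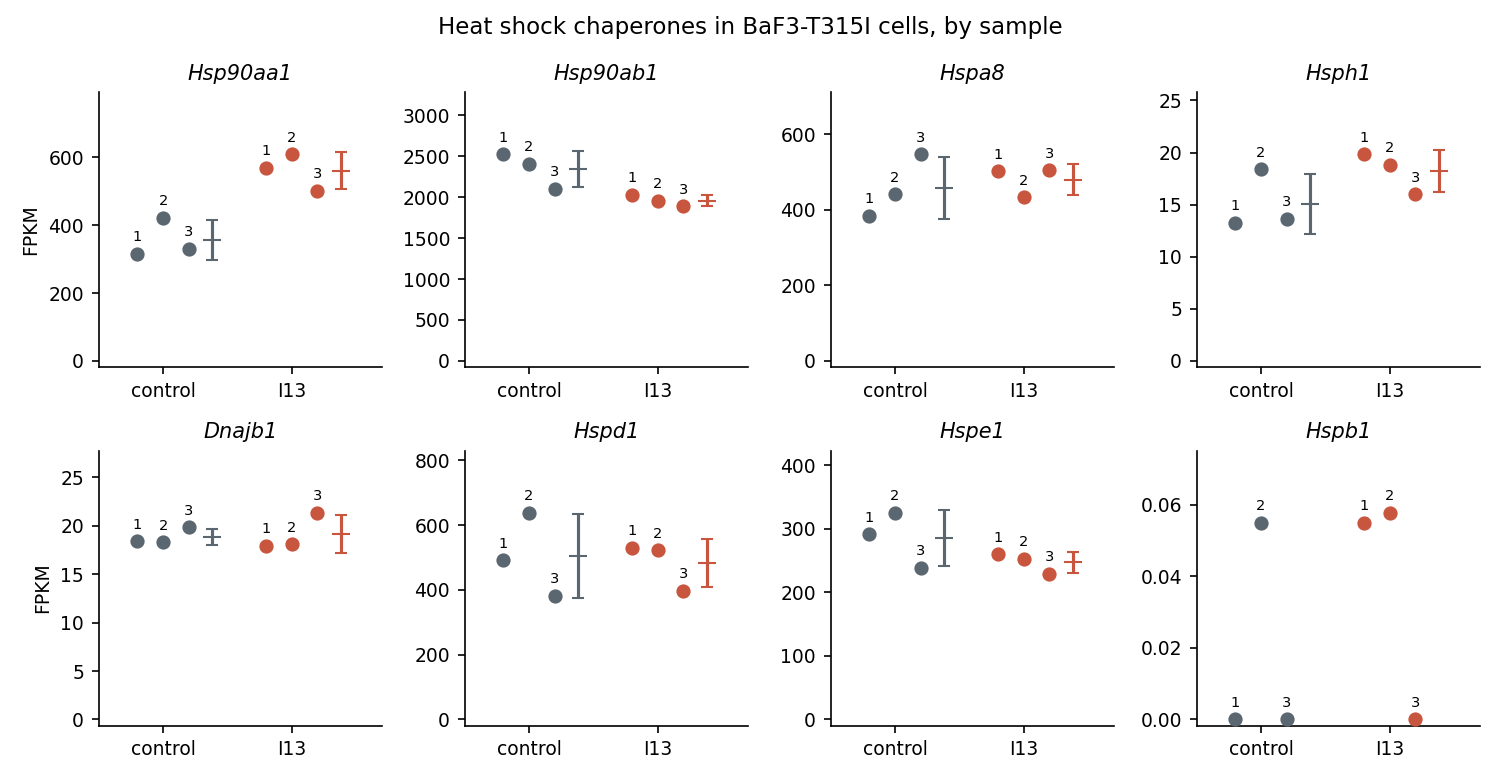
FPKM of the 8 chaperone genes in each sample (numbered points, replicates 1 to 3; the bar beside each group is the mean ± SD, n = 3, omitted for Hspb1); the vertical axes include 0 and differ between panels. The control and I13 points do not overlap for Hsp90aa1, which was higher after I13, and for Hsp90ab1, which was lower, and they overlap for every other gene shown.

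The question addressed by the comparison was how the transcripts of BaF3-T315I cells differ after exposure to I13. The values of both cytosolic HSP90 genes did not overlap between the groups, in opposite directions. Hsp90aa1 (ENSMUSG00000021270) encodes the inducible cytosolic HSP90. Its control values were 316, 422 and 331 FPKM and its I13 values 568, 609 and 501 FPKM, in the order of replicates 1, 2 and 3 that is kept below. Every I13 sample lay above every control, and control replicate 2 was the nearest of the controls. The means were 356 ± 57.5 FPKM in the control and 559 ± 54.7 FPKM after I13 (SD, n = 3 each), which rested on 74145 and 113955 fragments. The log2 fold change was 0.66 (standard error 0.14, 95% interval 0.34 to 0.98), a 1.58-fold higher level. The adjusted p of Hsp90aa1 from limma was 0.109 over the 12163 genes tested. It was 0.0384 in the fit that held the replicate number as a block. That fit is given because same-numbered samples deviated together in these same data. With the block, Hsp90aa1 also passed the study's fold change threshold of 0.58 on the log2 scale, and its differences within pairs 1, 2 and 3 were 0.85, 0.53 and 0.60. Leaving out both samples of replicate 1, 2 or 3 from the blocked fit ended the call, with adjusted p-values from limma of 0.0504, 0.258 and 0.0836. The log2 fold change was then 0.56, 0.72 and 0.69.

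The control values of Hsp90ab1 (ENSMUSG00000023944) were 2525, 2405 and 2102 FPKM, and its I13 values were 2030, 1955 and 1888 FPKM. Every I13 sample lay below every control, though control replicate 3 and I13 replicate 1 were close to each other. The means were 2344 ± 218 FPKM in the control and 1958 ± 71.2 FPKM after I13 (SD, n = 3 each). The log2 fold change was -0.26 (standard error 0.10, 95% interval -0.49 to -0.02), with an adjusted p of 0.231 from limma, or 0.0767 when blocked. Thus, Hsp90ab1 did not pass the test in either fit. With voom on the recovered fragments and the block, its adjusted p from limma was 0.0262. The differences within pairs 1, 2 and 3 were -0.31, -0.30 and -0.16 on the log2 scale.

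The balance between both genes is given within each sample as a description. It was chosen after the opposite directions of both genes were seen, and its separation between the groups follows from them. Hsp90aa1 made up 11.1%, 14.9% and 13.6% of the summed FPKM of both genes in control replicates 1, 2 and 3. After I13 it made up 21.9%, 23.7% and 21.0% in replicates 1, 2 and 3. The log2 ratio of Hsp90aa1 to Hsp90ab1 was -2.73 ± 0.25 in the control and -1.81 ± 0.12 after I13 (SD, n = 3 each), so that the ratio was 1.89-fold higher. The sum of both genes overlapped between the groups, with 2700 ± 232 FPKM in the control and 2517 ± 113 FPKM after I13 (SD, n = 3 each), and it was lower after I13 in 3 of 3 pairs.

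**Figure D2:**
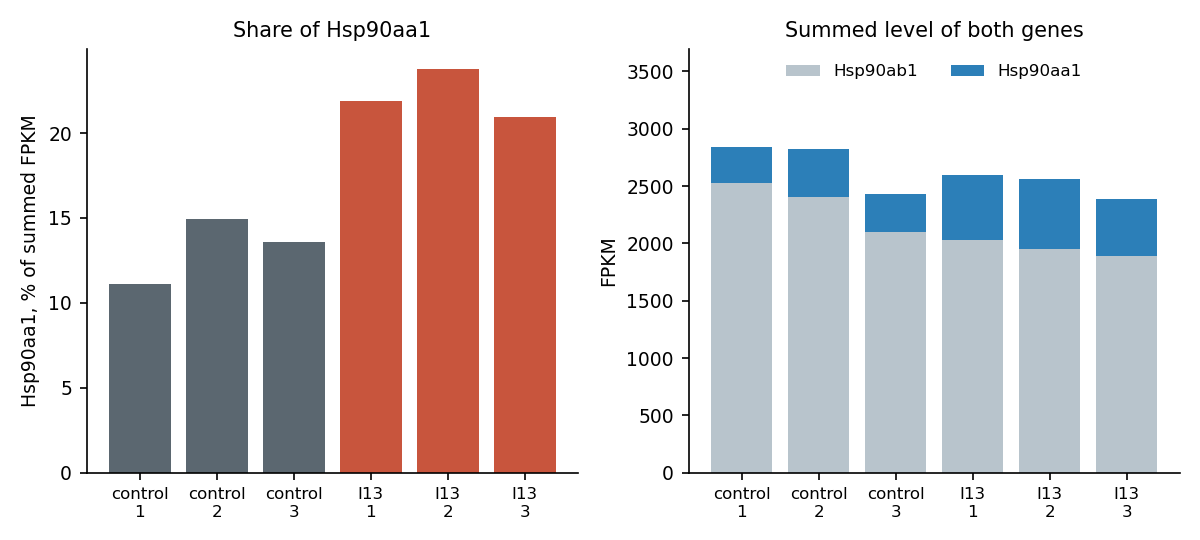
Left, Hsp90aa1 as a percentage of the summed FPKM of Hsp90aa1 and Hsp90ab1 in each sample; right, the FPKM of both genes stacked (axes start at 0, 1 bar per sample). The share runs from 11.1% to 14.9% in the control and from 21.0% to 23.7% after I13, while the summed levels of the groups overlap.

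Among the HSP90 genes of other compartments, chosen for description after their values were seen, the endoplasmic reticulum member Hsp90b1 (GRP94) had control values of 58.3, 78.4 and 61.8 FPKM. Its I13 values were 103, 117 and 91.3 FPKM, again without overlap. Its log2 fold change of 0.65 was close to the 0.66 of Hsp90aa1, and its adjusted p was 0.113 from limma, or 0.0384 when blocked. Leaving out replicate 1, 2 or 3 from the blocked fit gave 0.0492, 0.288 and 0.0801 for Hsp90b1, so the call was lost without replicate 2 or 3. The mitochondrial member Trap1 had a log2 fold change of -0.38, from 60.8 ± 9.12 to 46.6 ± 5.36 FPKM (SD, n = 3 each), with overlapping ranges and an adjusted p of 0.223 from limma, or 0.0570 when blocked.

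Hspa8, the constitutive cytosolic HSP70 (HSC70), had control values of 384, 441 and 547 FPKM and I13 values of 501, 433 and 504 FPKM. The groups overlapped fully, as the I13 values all lay within the range of the controls. For Hspa8 the log2 fold change was 0.080 (95% interval -0.26 to 0.42, adjusted p = 0.796 from limma), and it was -0.038 without control replicate 1, the lowest sample. Equal levels were not shown, since the interval reaches 0.42.

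Hsph1, the HSP110 that serves HSP70 as a nucleotide exchange factor, had control values of 13.2, 18.4 and 13.6 FPKM and I13 values of 19.9, 18.8 and 16.0 FPKM. The I13 sample was the higher one of all 3 pairs, but control replicate 2 lay above I13 replicate 3. For Hsph1 the log2 fold change was 0.28 (95% interval -0.08 to 0.64, adjusted p = 0.367 from limma), or 0.43 without control replicate 2. Leaving out replicate 1 of the control gave 0.20, and leaving out both samples of that number from the blocked fit gave 0.13.

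Dnajb1, the J-domain protein that stimulates HSP70 and a strongly heat-inducible gene in most cells, varied least over the 6 samples, from -0.078 to 0.17 around its own mean on the log2 scale. Its control values were 18.4, 18.3 and 19.9 FPKM, and its I13 values were 18.0, 18.1 and 21.4 FPKM. Replicate 3 was the highest of both groups. Dnajb1 had a log2 fold change of 0.018 with a 95% interval of -0.22 to 0.26 (adjusted p = 0.942 from limma), so that the 0.66 of Hsp90aa1 lay outside the interval.

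The mitochondrial chaperonin genes Hspd1 and Hspe1 lie head to head and share a promoter region. Of the sum of squares of log2(FPKM + 0.1) of Hspd1, 87.3% lay between the replicate numbers and 0.665% between the conditions. For Hspe1 these shares were 53.9% and 32.5%. The shares are not on equal terms, as there are 3 replicate numbers and 2 conditions. The control values of Hspd1 were 491, 639 and 382 FPKM, and its I13 values were 530, 523 and 398 FPKM. Replicate 3 was the lowest in both groups, and the groups overlapped. Hspd1 had a log2 fold change of -0.041 (95% interval -0.52 to 0.43, adjusted p = 0.932 from limma), and it was 0.14 without control replicate 2. A processed pseudogene of Hspd1 in the table held 2.52% as many fragments as Hspd1 itself, and the counting could split reads between both. Its log2 fold change was -0.10 (adjusted p = 0.808 from limma).

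The control values of Hspe1 were 292, 326 and 239 FPKM, and its I13 values were 260, 253 and 229 FPKM. The I13 sample was the lower one of all 3 pairs, but control replicate 3 lay below I13 replicates 1 and 2. For Hspe1 the log2 fold change was -0.20 (95% interval -0.50 to 0.10, adjusted p = 0.441 from limma), and 0.170 was the adjusted p with the block. It was -0.096 without control replicate 2 and -0.32 without control replicate 3. The ratio of Hspd1 to Hspe1 was 1.75 ± 0.19 in the control and 1.95 ± 0.19 after I13 (SD, n = 3 each), with overlapping ranges and a higher value after I13 in 3 of 3 pairs.

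Hspb1 rested on 1 fragment in the 3 controls together and 2 fragments in the 3 I13 samples together, and no fold change is given. A count of 0 allows up to 3 fragments, which for Hspb1 is between 0.164 and 0.174 FPKM in these libraries and covers counting error only. All 6 libraries held fewer Hspb1 fragments than that, so no level can be given.

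**Figure D3:**
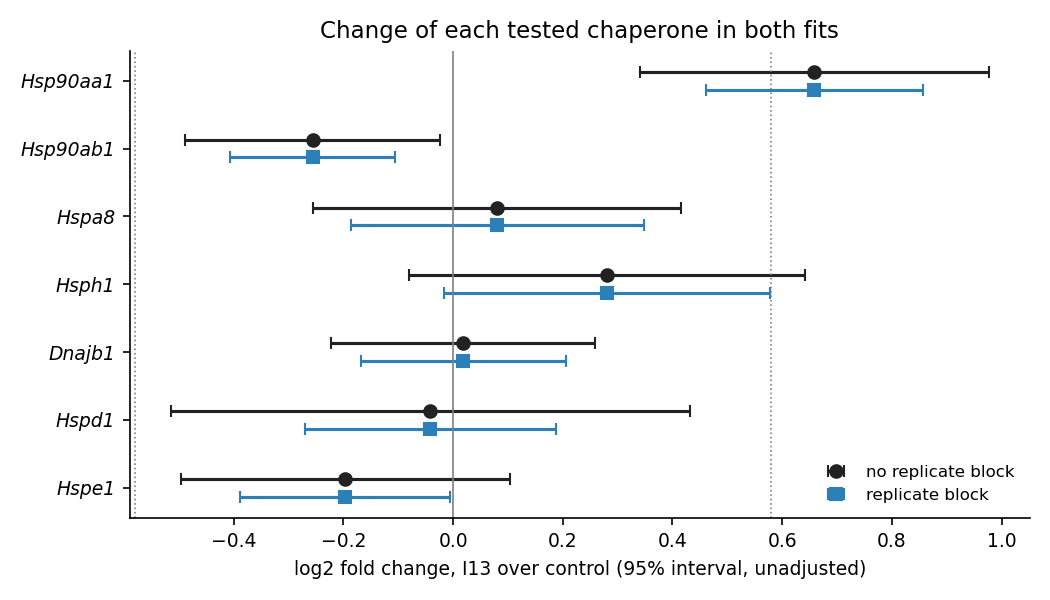
Log2 fold change of I13 over control for the 7 chaperones tested, with 95% intervals from limma without (circles) and with (squares) the replicate block; dotted lines mark the fold change threshold of 0.58. The intervals of Hsp90aa1 lie wholly above 0 and those of Hsp90ab1 wholly below 0, and the other genes include 0 in the fit without the block.

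Over the 7 chaperones tested, 2 had an unadjusted p below 0.05, against 18.6% of all genes tested. These were Hsp90aa1, which was higher as 7.79% of all genes were at that level, and Hsp90ab1, which was lower as 10.8% were. With the block, Hspe1 joined them, and 28% of all genes reached that level. The values of the groups did not overlap for 2 of 7 genes, against 25.2% of all genes, again Hsp90aa1 as the higher one (9.82% of all genes) and Hsp90ab1 as the lower one (15.4% of all genes). In 4 of 7 genes the direction was the same in all 3 pairs, against 51.5% of all genes, and 1 of 7 moved by 0.58 or more on the log2 scale in either direction, against 9.41%.

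In limma without the block, 0 of 7 chaperones had an adjusted p below 0.05, against 0.0411% of all genes. With the block 1 of 7 had, Hsp90aa1, against 2.99% of all genes, of which 1.75% were higher and 1.24% lower. Requiring the fold change threshold as well kept Hsp90aa1, against 1.89% of all genes. With voom on the recovered fragments, 0 of 7 had an adjusted p below 0.05 without the block, against 0.0493% of all genes, and 2 of 7 with it, against 12.4% of all genes. By sign alone 4 of 7 were higher after I13, against 49.2% of all genes, and the median log2 fold change of the 7 was 0.018, beside -0.0053 over all genes tested. With 7 genes, these shares give no result about the chaperones as a set.

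The members did not all share a common pattern over the samples. Of the sum of squares of log2(FPKM + 0.1), 82.1% lay between the conditions for Hsp90aa1 and 69.6% for Hsp90ab1. In contrast, 1.04% did for Dnajb1, 0.665% for Hspd1 and 5.58% for Hspa8. For Hspd1 and Dnajb1, 87.3% and 86.8% lay between the replicate numbers. As a description over 6 samples, the deviations from the group means of Hspd1 and Hspe1 had a Pearson correlation of 0.97 and those of Hsp90aa1 and Hsph1 of 0.95. The other pairs among these genes lay between 0.69 and 0.87. Hsp90ab1 had 0.72 with Hspd1 and 0.83 with Hspe1, but 0.21 with Hsp90aa1 and 0.33 with Hsph1. The deviations of Hspa8 and Hsp90ab1 were opposed, with -0.84, as were those of Dnajb1 and Hspd1, with -0.80. These points share their libraries and the replicate effect, and the deviations sum to 0 within each group, so fewer than 6 vary freely. Control replicate 2 had the highest control value of Hsp90aa1, Hsph1, Hspd1 and Hspe1, and I13 replicate 3 had the lowest I13 value of these genes and of Hsp90ab1. Among the 5 genes most like the mean of the members over the 6 samples, by Pearson correlation of log2 values among genes with a mean of at least 10 FPKM, were Rcor1, Katna1, Cnbp and Ebna1bp2, with correlations from 0.981 to 0.994. That mean ran over members with opposed patterns, and under median-ratio scaling only 2 of the 5 genes remained.

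**Figure D4:**
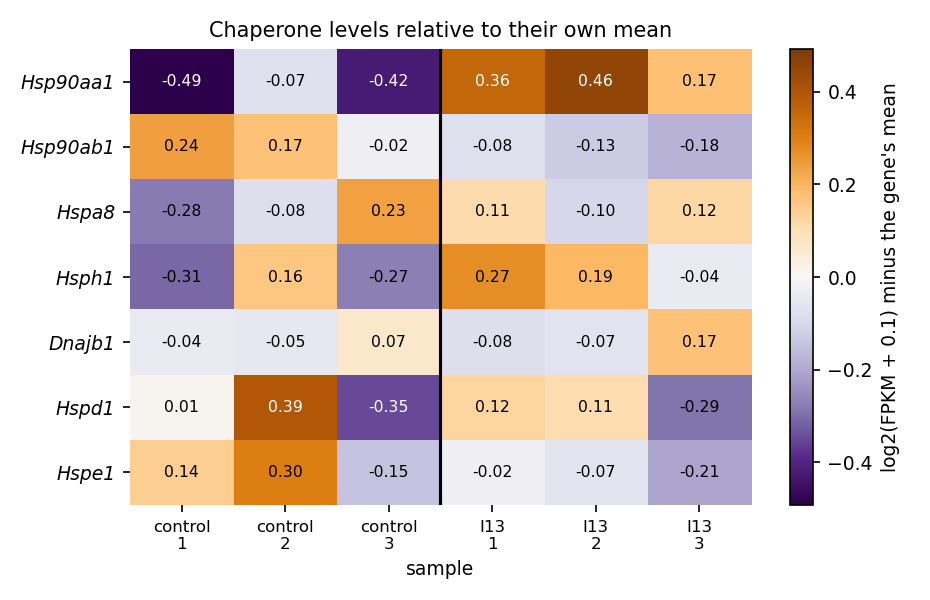
Heat map of log2(FPKM + 0.1) minus the gene's own mean over the 6 samples, for the 7 chaperones tested (rows) in each sample (columns; the line parts control from I13). Hsp90aa1 runs from -0.49 to -0.073 in the control and from 0.17 to 0.46 after I13, while Hspd1 is lowest in replicate 3 of both groups.

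The summed level of the 8 members overlapped between the groups, with 3981 ± 321 FPKM in the control and 3765 ± 189 FPKM after I13 (SD, n = 3 each), and it was lower after I13 in 3 of 3 pairs. They took 1.23% ± 0.0821 of the recovered library totals in the control and 1.20% ± 0.0553 after I13 (SD, n = 3 each), a share that was lower in 2 of 3 pairs. Hsp90ab1 alone made up 58.9% ± 3.23 of the summed FPKM in the control and 52.0% ± 0.924 after I13 (SD, n = 3 each), and the ranges of this share did not overlap. This is no separate result, as Hsp90ab1 and Hsp90aa1, both in the sum, had already been seen to differ in opposite directions.

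The chaperone system around these genes was described with 9 further lists of 115 genes, of which 97 were tested. At an unadjusted p below 0.05, 4 of the 97 genes were higher after I13, against 7.79% of all genes tested, and 13 were lower, against 10.8%. Together these were 17.5% of the 97 genes, against 18.6% of all genes. In limma without the block 0 of the 97 had an adjusted p below 0.05, against 0.0411% of all genes, and with the block 1 had, Hspa13, against 2.99% of all genes. With voom on the recovered fragments and the block, 9 had, against 12.4% of all genes. Over the 97 genes the median log2 fold change was -0.050.

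Among the heat shock factors, 3 genes were tested. Hsf1, the main transcriptional activator of heat shock genes, was listed at 27.5 FPKM in the control and 21.0 FPKM after I13 as group means without overlap between samples, a log2 fold change of -0.39 (adjusted p = 0.153 from limma, or 0.104 when blocked). Hsf2 and the HSF1-binding protein gene Hsbp1 had log2 fold changes of 0.31 and 0.041 with overlapping ranges. Of the other HSP70 and HSP110 genes, 6 were tested, and Hspa13, a microsomal HSP70 relative, rose in the blocked fit. Its control values were 8.35, 9.05 and 10.8 FPKM, and its I13 values were 16.0, 15.9 and 16.2 FPKM, which lay apart by 0.77 on the log2 scale (adjusted p = 0.0860 from limma, or 0.0384 when blocked). Leaving out replicate 1, 2 or 3 from the blocked fit gave adjusted p-values from limma of 0.0654, 0.295 and 0.0788 for Hspa13, so that its call was lost each time. The HSP110 genes Hspa4 and Hspa4l had log2 fold changes of 0.14 and 0.40, neither with an adjusted p below 0.05. The endoplasmic reticulum HSP70 Hspa5 (BiP), added after its values were seen, was at 123 ± 4.47 FPKM in the control and 176 ± 22.2 FPKM after I13 (SD, n = 3 each). It had a log2 fold change of 0.52 without overlap (adjusted p = 0.111 from limma, or 0.0577 when blocked).

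Of the J-domain genes 24 were tested, and 1 was higher and 2 were lower at an unadjusted p below 0.05, together 12.5% against 18.6% of all genes. The higher gene, named after its values were seen, was Dnaja1, which partners HSC70 in the cytosol, with a log2 fold change of 0.41 (adjusted p = 0.158 from limma). Dnajb6, an anti-aggregation chaperone, had the largest change among the well-expressed J-domain genes at 0.43, with overlapping ranges and an adjusted p of 0.366 from limma. This value rested on I13 replicate 3, at 38.7 FPKM beside 22.0 and 20.7 FPKM, and was 0.15 for Dnajb6 without that sample. Among 20 HSP90 co-chaperones, 1 was higher and 2 were lower at that level, together 15% against 18.6% of all genes. Pih1d1, a subunit of the R2TP complex, had the largest change of those at a mean of 10 FPKM or more, -0.41 (adjusted p = 0.188 from limma). Stip1, the adaptor between HSP70 and HSP90, was at 228 FPKM in the control and 221 FPKM after I13 as group means, and Cdc37, the kinase-specific co-chaperone, was at 61.5 and 56.4 FPKM. Of the 9 other HSP70 co-chaperones tested, 3 were lower at an unadjusted p below 0.05, Bag6, Stub1 and Hspbp1, where 10.8% of all genes were, and 0 were higher, where 7.79% were. Hspbp1, a nucleotide exchange factor of HSP70, had the largest change of these at -0.33 (adjusted p = 0.177 from limma).

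Among 18 mitochondrial chaperones and proteases, 2 were lower at an unadjusted p below 0.05, Trap1 and the matrix protease gene Clpp, and 0 were higher, together 11.1% against 18.6% of all genes. The median log2 fold change of this list was -0.052. Hspa9, the mitochondrial HSP70 that hands clients to HSPD1, was at 134 ± 19.6 FPKM in the control and 148 ± 11.9 FPKM after I13 (SD, n = 3 each) with overlapping ranges. Of the 8 subunits of the cytosolic chaperonin TRiC, 6 had a lower and 2 a higher mean log2 value after I13, and Cct7 had the largest change at -0.20 (adjusted p = 0.258 from limma). Of 6 prefoldin subunits, Pfdn5 had the largest change at -0.25 (adjusted p = 0.218 from limma). The genes listed by symbol as small heat shock proteins were little expressed, and their chaperone function was not examined. In the 3 tested, the highest group mean was 5.58 FPKM for Hspb11, followed by 1.91 FPKM for Hspb6, and none had an adjusted p below 0.05.

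**Figure D5:**
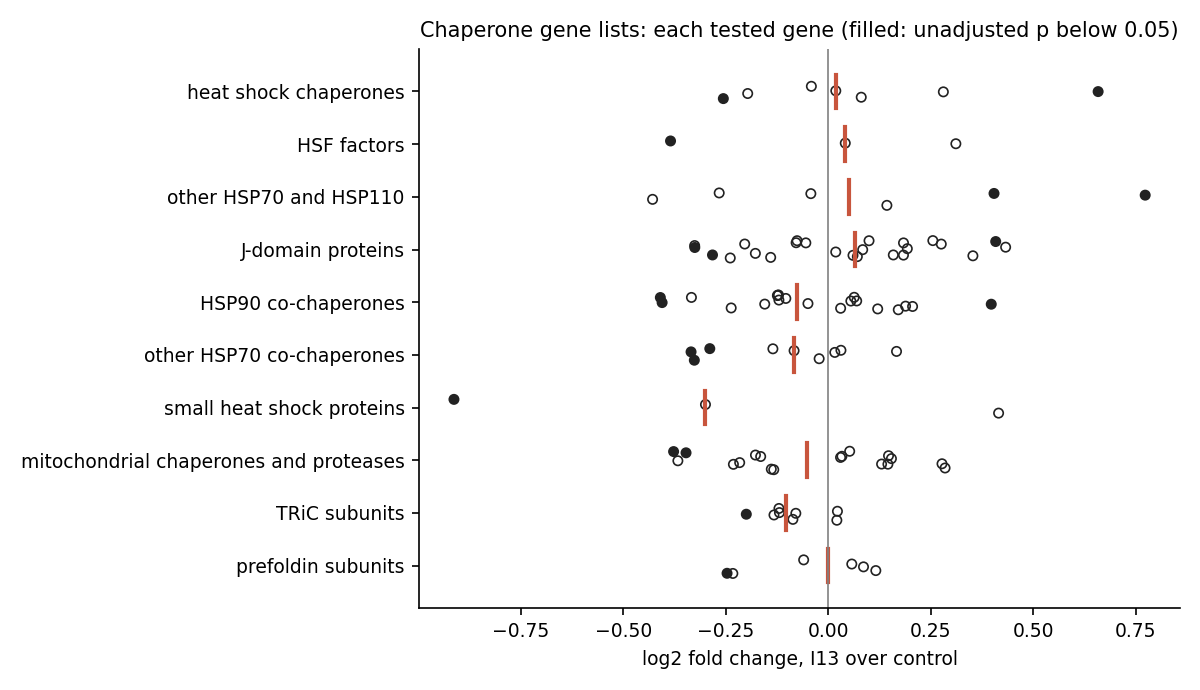
Log2 fold change of each tested gene (points, filled at an unadjusted p below 0.05) in the heat shock chaperones and the 9 further lists; red bars are list medians. The medians lie between -0.30, for the 3 genes listed as small heat shock proteins, and 0.066, for 24 J-domain genes.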

How the data were processed

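mRNA was sequenced in 3 control and 3 I13 samples, which were grouped and numbered from the labels. The authors deposited FPKM values per gene and sample, without pooling. The submitters' processing notes name Trimmomatic, HISAT2, Cufflinks and HTSeq without versions or roles. They name the human build hg38 and the labels a human organism, whereas the gene identifiers are mouse, so no coordinates or sequences are given. The statistical test behind the study's thresholds is not given in the sources used here.

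The FPKM were turned back into whole fragments, as the smallest whole gene length giving whole fragments within 0.001 in all samples. log2(FPKM + 0.1) was compared with limma 3.58.1 in R 4.3.3 (eBayes with a trend on mean expression, two-sided) in the 12163 genes averaging 0.5 FPKM or more, with Benjamini-Hochberg adjustment over all of them. Fold changes on this scale understate those of low genes. The fit and the recovery were tested on simulated data.

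Deviations from the group means correlated across genes at 0.15, 0.30 and 0.22 between same-numbered samples 1, 2 and 3, and from -0.26 to 0.05 otherwise. Each same-number value exceeded 0.1, so same-numbered samples were treated as pairs in an added blocked fit. No source ties a number to a shared batch, and the pairing was taken from the same values that the blocked fit tests. The deviations of a gene sum to 0 within each group, so positive same-number values push the other values down. The contrast between both is therefore no separate evidence for the pairing, and every blocked call depends on it. The members and lists were chosen with earlier results of these data known. The genes named are the members, list genes at an adjusted p below 0.05 in either fit, the gene of each list with the largest change at a mean FPKM of at least 10, and the 5 genes most like the members, of which 1 is not reported here. Every other gene given by name was chosen after its values were seen. Alternatives were other pseudocounts, filters, scalings and eBayes settings, voom on the fragments, and left-out samples or pairs. Python 3.11.15 with matplotlib 3.10.9 drew the figures.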

Additional observations from a re-analysis of the deposited data

How the results depend on the processing

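Of 340 comparisons over 17 single genes and 20 alternatives, 320 kept direction and call, 9 turned direction and 11 gained a call. None of the 17 genes had an adjusted p below 0.05 in limma without the block, so no call could be lost. In limma the block, the filters and the eBayes setting also leave the fold change unchanged by construction. These counts are therefore no measure of how stable the results are. Hsp90aa1 lay between 0.56 and 0.79 and Hsp90ab1 between -0.33 and -0.20 on the log2 scale, and the difference in their log2 ratio between 0.78 and 1.02, moves below the control SD of 0.25 but in part above the I13 SD of 0.12. Direction turned for Hspd1 with quantile normalization (0.039). Leaving out 1 sample moved Hspa8 from -0.038 to 0.22, Dnajb1 from -0.063 to 0.062 and Hspd1 from -0.22 to 0.14. Leaving out a pair under the replicate block moved Hspa8 from -0.072 to 0.18, Dnajb1 from -0.026 to 0.046 and Hspd1 from -0.12 to 0.082. The cause was not tested.

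Without the block, 5 of all genes had an adjusted p below 0.05 in limma, 2 with a pseudocount of 0.01, median-ratio scaling or quantile normalization, and 8 without a filter or without a trend. The replicate block gave 364, and 1507 when joined to voom. At an unadjusted p, 2266 genes became 3409 under the block and 3743 when voom was joined to it. Leaving out 1 sample gave 0 genes at an adjusted p and 1478 to 2482 at an unadjusted p, the lowest without I13 replicate 1. Leaving out a pair under the block gave 0 to 85 and 1638 to 3160, with 0 without replicate 2 or 3.

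Of the chaperones, 2 had an unadjusted p below 0.05, but 1 without a filter, with median-ratio scaling or without a trend, and 4 when voom was joined to the block. Leaving out 1 sample gave 1 to 3 (1 without control replicate 1 or any I13 replicate, 3 without control replicate 3), and a pair under the block 2 to 3. At an adjusted p there were 0 chaperones, 1 under the block, 2 when voom was joined to it, and 0 when a pair was left out. In the other lists 17 genes had an unadjusted p below 0.05, 27 under the block, 34 when voom was joined to it, 9 to 22 without 1 sample (9 without I13 replicate 1, 10 without control replicate 1) and 11 to 22 without a pair under the block. Their counts at an adjusted p were 0, 1 under the block and 9 when voom was joined to it, and 0 when a pair was left out. Of the 5 most similar genes, 2 were kept with median-ratio scaling. Each sample left out lowers the power of the test, and Hspb1 is limited by its fragments.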
